A study of Homo sapiens with 6 samples.

Results

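The RNA exosome is the main machine that degrades and trims RNA from its 3′ end in eukaryotic cells. Its transcripts were followed here in the THP1 line, established from a human acute monocytic leukemia, after short exposure to Withaferin A (WFA), a plant steroidal lactone. The genes examined were the core subunits EXOSC1 to EXOSC9 and the nuclease DIS3, taken by symbol as 10 of the 26485 genes in the deposited count table. The cells, in medium with fetal bovine serum, were treated for 6 h with WFA or with its vehicle DMSO, in 3 independent experiments that gave 3 libraries per group. The sample labels give the WFA concentration as 1 mM and the study's methods give 1 μM. All results are from 1 cell line, at 1 time and 1 concentration. They concern transcript levels and not protein or exosome activity. In bulk RNA, less RNA per cell and fewer cells with it cannot be told apart.

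The exosome core is a barrel through which RNA is threaded. EXOSC4 to EXOSC9 resemble the bacterial enzyme RNase PH and form a ring of heterodimers, EXOSC4 with EXOSC9, EXOSC5 with EXOSC8, and EXOSC6 with EXOSC7, which in humans has lost catalytic activity. EXOSC1, EXOSC2 and EXOSC3 carry RNA-binding folds and sit as a cap at the entry of the channel. DIS3, at the exit, is the processive exonuclease and also holds an endonuclease domain. The complex finishes the 3′ end of 5.8S ribosomal RNA, trims small nucleolar and small nuclear RNAs, and destroys faulty or short-lived nuclear transcripts, and its cytoplasmic form takes part in mRNA turnover. Inherited mutations in several subunit genes cause neurological disease, and DIS3 is recurrently mutated in multiple myeloma.

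Total reads counted on genes were between 11006035 and 13872810 per library, of which the subunits together took between 3817 and 7307. Levels are given as CPM, the count per 1000000 reads after TMM scaling between libraries. The monocytic markers CD14, CD33, ITGAM, CSF1R, LYZ, MPO, CEBPA, SPI1 and CD68 were all detected, although CD14 and MPO stayed at or below 7.33 and 3.22 CPM. By edgeR (adjusted p under 0.05), 5 of these 9 markers were lower with WFA, with log2 fold changes of -1.22 for CD14, -0.85 for CD33, -0.58 for CEBPA, -0.40 for CSF1R and -0.34 for SPI1, and 1 was higher, CD68 at 0.37. Their summed level was 2640 to 3170 CPM with DMSO and 2310 to 3090 CPM with WFA. Of 8 markers of other lineages, 5 never exceeded 3 counts. The summed level of those 8 markers was 1.05 to 2.25 CPM with DMSO and 10.4 to 14.2 CPM with WFA, carried by COL1A1 at up to 12.6 CPM, and the part of either marker list in the results was not tested.

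Transcripts of most exosome subunits were lower after WFA, by amounts that differed widely within the complex. By the quasi-likelihood test of edgeR, with p-values adjusted over 12854 genes (Benjamini-Hochberg), 7 of the 10 subunits were lower with WFA and 0 were higher at an adjusted p-value under 0.05. Among all genes tested, 24.7% were lower and 25.8% were higher by the same rule. None of the subunits was higher at an unadjusted p-value under 0.05, and DESeq2's Wald test gave 6 lower and 0 higher, against 21.1% and 20.4% of the 14511 genes it tested. The median log2 fold change of the subunits was -0.52, against 0.02 over all genes tested. The median was -0.50, -0.43 and -0.48 in the same-numbered pairs of replicates 1, 2 and 3. With the replicate number as a block, 8 subunits were lower and 0 higher, against 28.8% and 30.2% of all genes. Summed over the subunits, the level was 525 ± 14.9 CPM with DMSO and 363 ± 9.71 CPM with WFA (SD, n = 3 each).

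**Figure D1:**
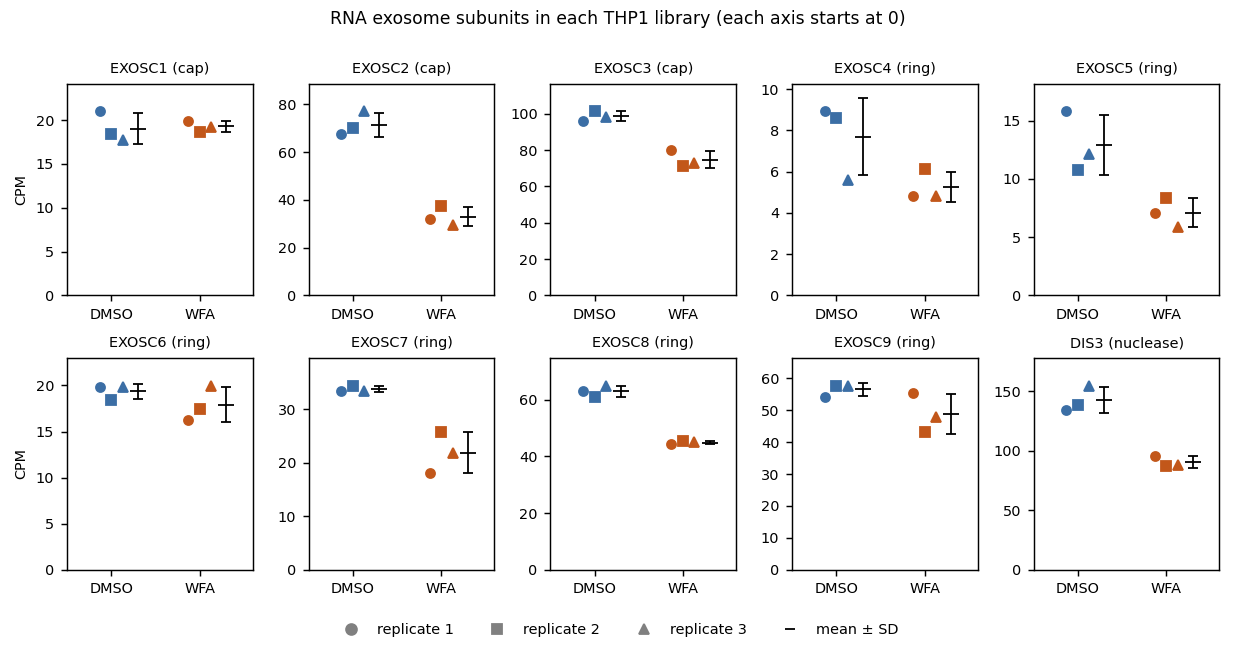
Level of each exosome subunit (CPM, linear axes from 0) in the 3 DMSO libraries (blue) and the 3 WFA libraries (orange), with symbols for the replicate number and bars for the mean ± SD. The WFA libraries lie below all DMSO libraries for EXOSC2, EXOSC3, EXOSC5, EXOSC7, EXOSC8 and DIS3, and the groups overlap for EXOSC1, EXOSC4, EXOSC6 and EXOSC9.

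The WFA libraries all lay below the DMSO libraries for 6 of the 10 subunits, and none had every WFA library above every DMSO library. Among all genes tested, 28.5% had the first pattern and 29.6% the second. An exact two-sided permutation test of 3 libraries against 3 cannot give a p below 0.1, so it could not pass the threshold for any subunit, and it takes no account of the pairing.

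The cap subunits split apart. EXOSC2, one of the RNA-binding proteins at the channel entry, had 67.5, 70.1 and 77.2 CPM in DMSO replicates 1, 2 and 3 and 32.2, 37.6 and 29.5 CPM in the WFA replicates. Every WFA library was far below every DMSO library, and the WFA mean was 46.2% of the DMSO mean. The log2 fold change was -1.11 ± 0.11 (SE, edgeR adjusted p = 7.51e-07), the greatest in size among the subunits. EXOSC3, a cap protein whose mutations underlie a form of pontocerebellar hypoplasia, had 96.0, 101 and 98.5 CPM with DMSO and 79.9, 71.4 and 72.7 CPM with WFA. The groups did not overlap, and the log2 fold change was -0.40 ± 0.08 (SE, edgeR adjusted p = 0.00104).

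EXOSC1, the remaining RNA-binding protein of the cap, had 21.0, 18.4 and 17.7 CPM with DMSO and 19.9, 18.7 and 19.2 CPM with WFA. All WFA values lay inside the range of the DMSO values. Its log2 fold change was 0.02, with a 95% interval from -0.24 to 0.27 (edgeR adjusted p = 0.926), and the sign varied with the processing. A change as large as that of EXOSC3 lies outside this interval. The ratio of EXOSC2 to EXOSC1 reads, which needs no scaling between libraries, was 3.21, 3.82 and 4.35 with DMSO and 1.61, 2.01 and 1.53 with WFA. This ratio was chosen after the values were seen and is given without a test.

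In the ring, the heterodimer of EXOSC5 and EXOSC8 had both transcripts lowered. EXOSC5 had 15.8, 10.8 and 12.2 CPM with DMSO and 7.10, 8.37 and 5.86 CPM with WFA. The groups did not overlap, and DMSO replicate 1 stood above the other two. Its log2 fold change was -0.86 ± 0.18 (SE, edgeR adjusted p = 0.00111). The same-numbered pairs gave -1.155, -0.37 and -1.05. EXOSC8, its partner, had 63.0, 61.1 and 65.0 CPM with DMSO and 44.2, 45.4 and 45.1 CPM with WFA. These were among the tightest values of the complex, with a coefficient of variation of 3.07% and 1.33%. The log2 fold change of EXOSC8 was -0.49 ± 0.09 (SE, edgeR adjusted p = 0.000271).

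EXOSC7 and EXOSC6, which pair in the ring, did not share a call. EXOSC7 had 33.4, 34.4 and 33.5 CPM with DMSO and 18.1, 25.7 and 21.8 CPM with WFA, so the DMSO libraries were nearly equal and the WFA libraries were lower and more scattered. Its log2 fold change was -0.62 ± 0.13 (SE, edgeR adjusted p = 0.000752). EXOSC6, encoded by a gene with 1 exon, had 19.8, 18.5 and 19.8 CPM with DMSO and 16.2, 17.5 and 19.99 CPM with WFA. The groups overlapped, since WFA replicate 3 was above all DMSO libraries. Its log2 fold change of -0.12 had a 95% interval from -0.38 to 0.15 (edgeR adjusted p = 0.458).

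EXOSC4 and EXOSC9, the remaining ring pair, gave the least settled calls. EXOSC4 was a thinly counted subunit, with 127, 109 and 67 reads in the DMSO libraries and 59, 76 and 52 in the WFA libraries. These correspond to 8.93, 8.60 and 5.58 CPM with DMSO and 4.81, 6.12 and 4.83 CPM with WFA, and DMSO replicate 3 lay below WFA replicate 2. The log2 fold change was -0.55 ± 0.21 (SE, edgeR adjusted p = 0.0361). The call was lost without DMSO replicate 1 (edgeR adjusted p = 0.145), without DMSO replicate 2 (edgeR adjusted p = 0.104), without WFA replicate 1 (edgeR adjusted p = 0.112) and without WFA replicate 3 (edgeR adjusted p = 0.105). DESeq2's Wald test gave an adjusted p = 0.0514 for it.

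EXOSC9, a ring protein known as an autoantigen in polymyositis-scleroderma overlap syndrome, had 54.1, 57.8 and 57.7 CPM with DMSO and 55.5, 43.2 and 47.8 CPM with WFA. WFA replicate 1 fell among the DMSO values and the other two WFA libraries lay below them. The log2 fold change was -0.21, with a 95% interval from -0.43 to 0.01 (edgeR adjusted p = 0.103). The pairs of replicates 1, 2 and 3 gave 0.04, -0.42 and -0.27. EXOSC9 passed the threshold with the replicate block, at -0.21 on the log2 scale (edgeR adjusted p = 0.0362), with scaling by library totals alone (edgeR adjusted p = 0.0263) and without WFA replicate 1 (edgeR adjusted p = 0.0212). The p-value from the block is likely too small.

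DIS3, the nuclease, was the most counted member, with 1907, 1752 and 1857 reads in the DMSO libraries and 1174, 1077 and 947 in the WFA libraries. It had 134, 138 and 155 CPM with DMSO and 95.8, 86.7 and 88.0 CPM with WFA, without overlap. The WFA mean was 63.4% of the DMSO mean, with a log2 fold change of -0.66 ± 0.09 (SE, edgeR adjusted p = 2.1e-05). The pairs of replicates 1, 2 and 3 gave -0.48, -0.67 and -0.81.

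**Figure D2:**
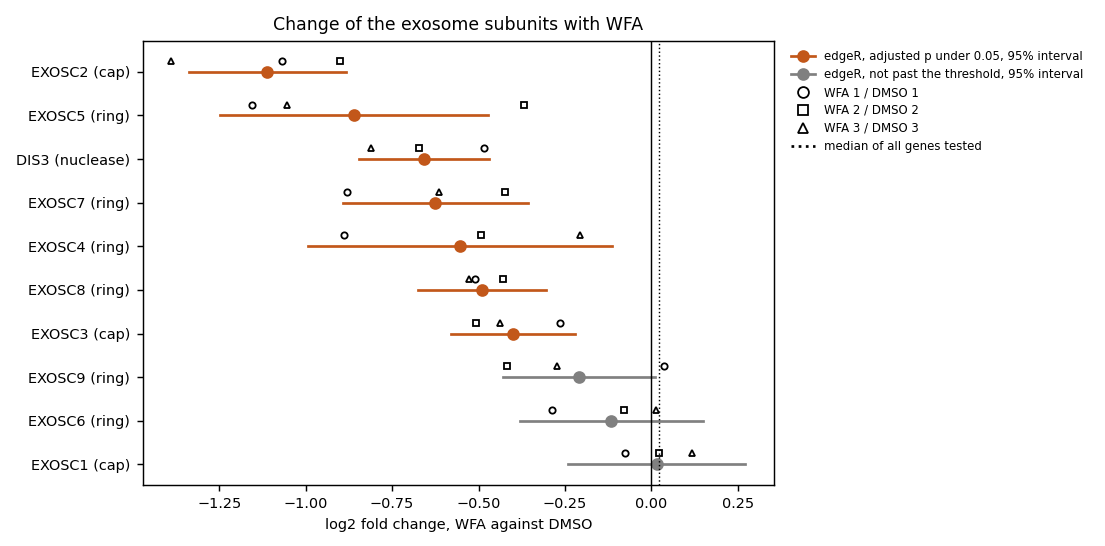
Log2 fold change of each exosome subunit, WFA against DMSO, from edgeR with its 95% interval (orange, adjusted p under 0.05, and grey, not past the threshold), and in the 3 same-numbered pairs (open symbols). The dotted line is the median of all genes tested, 0.02. The changes run from -1.11 for EXOSC2 to 0.02 for EXOSC1, and 7 intervals of called subunits lie wholly below 0.

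Some subunit genes overlap a neighbor in GENCODE 29, and the library kit did not mark strand, so reads from the shared bases cannot be assigned to one gene. The overlap was 274 bases for EXOSC4, 30.9% of its exons, with an antisense RNA that is not in the table by that name. DIS3 shares 1180 bases, 10.9% of its exons, with BORA, a mitotic kinase activator whose log2 fold change was -0.52 (edgeR adjusted p = 0.00102). EXOSC9 shares 144 bases, 8.14% of its exons, with the cyclin gene CCNA2, whose log2 fold change was -0.93 (edgeR adjusted p = 1.11e-06). EXOSC8 shares 86 bases with SUPT20H, which changed by 0.25 on the log2 scale (edgeR adjusted p = 0.0295), and EXOSC5 shares 20 bases with BCKDHA. EXOSC3 shares 150 bases, 8.27% of its exons, with another protein-coding gene model on the same strand, which the table does not list by that name. The part of these overlaps in the values was not tested.

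Measured transcript levels per length were not equal between the subunits. Levels between genes were compared as CPM per kilobase of merged GENCODE 29 exons, which may not be the annotation used for counting. With DMSO the order was EXOSC3 at 54.4 ± 1.49, EXOSC8 at 52.6 ± 1.62, EXOSC2 at 34.5 ± 2.42, EXOSC7 at 32.0 ± 0.536 and EXOSC9 at 32.0 ± 1.18 CPM per kilobase (SD, n = 3 each). EXOSC1 followed at 20.6 ± 1.88, DIS3 at 13.1 ± 1.00, EXOSC5 at 11.6 ± 2.32, EXOSC4 at 8.68 ± 2.08 and EXOSC6 at 3.76 ± 0.152 CPM per kilobase. The ranges of 3 libraries overlapped between EXOSC3 and EXOSC8, among EXOSC2, EXOSC7 and EXOSC9, between DIS3 and EXOSC5, and between EXOSC5 and EXOSC4. The highest level per kilobase was 14.5 times the lowest with DMSO and 11.9 times with WFA.

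With WFA the order by merged exon length changed in the middle. EXOSC3 and EXOSC8 stayed first at 41.2 ± 2.53 and 37.5 ± 0.498 CPM per kilobase, and EXOSC6 stayed last at 3.47 ± 0.371. EXOSC2 went from the third place to the sixth, at 16.0 ± 1.99 CPM per kilobase, below EXOSC9 at 27.6 ± 3.51 and EXOSC1 at 20.9 ± 0.675. Its range with WFA overlapped that of EXOSC7, at 20.7 ± 3.58 CPM per kilobase, but not that of EXOSC1. The ranges of EXOSC1 and EXOSC7, and of EXOSC5 and EXOSC4, also overlapped with WFA. The level of DIS3 on this scale depends on the length used. With the median length of its annotated transcripts, 5232 bases, in place of the merged 10835 bases, its level with DMSO was 27.2 CPM per kilobase. EXOSC6, whose single exon spans 5153 bases, has that length by either measure, so the alternative could not move its level. It was lowest in both orders, and the span from highest to lowest level rests on this annotated length. With median transcript lengths EXOSC2 went from place 4 to place 7, at 16.9 CPM per kilobase with WFA beside 17.2 for DIS3.

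**Figure D3:**
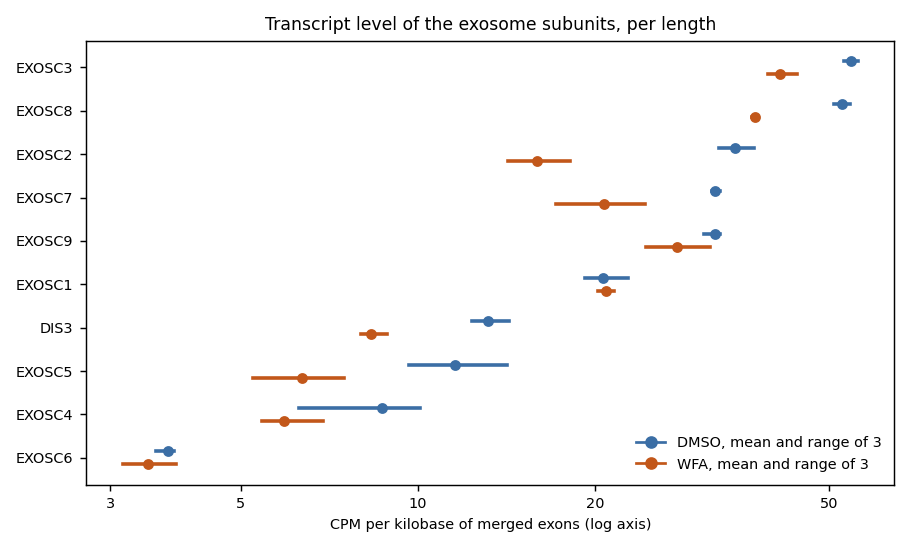
Transcript level of each exosome subunit in CPM per kilobase of merged exons (log axis), as mean and range of the 3 DMSO libraries (blue) and the 3 WFA libraries (orange). EXOSC2 moves from 34.5 to 16.0 CPM per kilobase and passes below EXOSC1, which stays near 20.6.

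Promoter sequence is shown for EXOSC2, which had the largest fall, and for DIS3, the catalytic subunit, and also for EXOSC5, chosen after the motif search as the carrier of a CACGTG. In RefSeq promoters of 8 of the 10 subunits (not EXOSC1 and EXOSC4), the 250 bases upstream of the transcription start were searched on both strands. Capitals mark GGGCGG (the GC box), CCAAT (the CCAAT box), CACGTG (the E-box of MYC, MAX and related factors) and CCGGAAG (a core of ETS factors), each in either orientation, and no marked match overlaps another. EXOSC2 lies on the plus strand (GRCh38.p14, chr9:130693510-130693759), EXOSC5 on the minus strand (chr19:41397360-41397609) and DIS3 on the minus strand (chr13:72781901-72782150), each written 5′ to 3′ along its gene.
EXOSC2: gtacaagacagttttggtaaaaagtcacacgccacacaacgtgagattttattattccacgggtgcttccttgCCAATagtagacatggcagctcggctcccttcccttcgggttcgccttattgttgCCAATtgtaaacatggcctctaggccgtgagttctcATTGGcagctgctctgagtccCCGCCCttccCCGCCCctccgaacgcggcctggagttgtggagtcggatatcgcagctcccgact
EXOSC5: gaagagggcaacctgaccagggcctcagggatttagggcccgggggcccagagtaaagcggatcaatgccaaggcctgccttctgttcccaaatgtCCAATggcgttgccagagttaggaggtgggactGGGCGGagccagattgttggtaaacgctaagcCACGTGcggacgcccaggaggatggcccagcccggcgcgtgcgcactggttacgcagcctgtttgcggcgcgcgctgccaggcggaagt
DIS3: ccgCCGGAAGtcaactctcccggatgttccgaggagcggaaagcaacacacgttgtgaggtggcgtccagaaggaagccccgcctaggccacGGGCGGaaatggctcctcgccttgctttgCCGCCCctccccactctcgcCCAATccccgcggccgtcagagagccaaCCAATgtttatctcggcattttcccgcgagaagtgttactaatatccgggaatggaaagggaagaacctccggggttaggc

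The GC box letters GGGCGG were in 6 of the 8 subunit promoters, DIS3, EXOSC2, EXOSC3, EXOSC5, EXOSC7 and EXOSC8, and in 42.6% of all 35116 promoters. CCAAT was in 4 of the 8, DIS3, EXOSC2, EXOSC5 and EXOSC9, and in 32.0% of all promoters. EXOSC2 carried it 3 times, with the 5′ ends at 177, 122 and 86 bases upstream of the start. CACGTG was in 1 of the 8, EXOSC5, at 89 bases upstream, and in 6.34% of all promoters, and CCGGAAG was in DIS3 alone, at 247 bases upstream, and in 8.52% of all. GAANNTTC, letters found in heat shock elements, and TGACNNNGC, the core of the antioxidant response element, were in 0 of the 8, against 5.78% and 10.9% of all promoters. These are matches of letters and not sites of binding.

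Of 15 nuclear cofactors of the exosome, 4 were lower, 3 were higher and 8 did not pass the threshold in edgeR's test, shares near the 24.7% lower and 25.8% higher among all genes. Their median log2 fold change was -0.06, against 0.02 over all genes. WDR74, which links the nuclear helicase of the exosome to ribosome precursors, went from 42.0 ± 1.28 to 15.8 ± 2.33 CPM, a log2 fold change of -1.41 ± 0.12 (SE, edgeR adjusted p = 2.48e-07). NVL, an ATPase that acts with it, had a log2 fold change of -0.32 ± 0.08 (SE, edgeR adjusted p = 0.00418). PABPN1, a nuclear poly(A) binding protein that directs polyadenylated nuclear RNA to the exosome, rose by a log2 fold change of 0.56 ± 0.14 (SE, edgeR adjusted p = 0.00409), and its reads may be shared with an annotated read-through transcript from BCL2L2.

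DIS3 is not the only nuclease that can join the exosome core. EXOSC10, the distributive nuclease of the nuclear complex, had 149.7 ± 8.46 CPM with DMSO and 121 ± 3.49 CPM with WFA, a log2 fold change of -0.30 ± 0.08 (SE, edgeR adjusted p = 0.00651). The ratio of DIS3 to EXOSC10 reads was 0.954, 0.913 and 0.983 with DMSO and 0.818, 0.702 and 0.716 with WFA, without overlap (exact two-sided permutation p = 0.1, the smallest possible, and 0.2 adjusted over 2 ratios). EXOSC10 was added by role after its values were seen, so this test was not set in advance. DIS3L, the DIS3 paralog of the cytoplasmic exosome, had 68.5 ± 2.67 and 45.6 ± 1.77 CPM, a log2 fold change of -0.59 ± 0.09 (SE, edgeR adjusted p = 6e-05). The ratio of DIS3 to DIS3L reads overlapped, at 1.97, 2.09 and 2.17 with DMSO and 2.02, 1.97 and 1.95 with WFA (exact two-sided permutation test p = 0.3, adjusted 0.3).

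Among the cytoplasmic partners, 2 of 4 tested were lower and 0 were higher, against 24.7% and 25.8% of all genes. WDR61, a subunit of the SKI complex that feeds mRNA to the cytoplasmic exosome, had a log2 fold change of -0.53 ± 0.10 (SE, edgeR adjusted p = 0.000498). The other SKI subunit tested, TTC37, had 123 ± 7.05 and 132 ± 13.6 CPM, and the bridging factor HBS1L had 180 ± 5.35 and 165 ± 13.9 CPM. No rise reached even an unadjusted p-value under 0.05 in edgeR's test, and DESeq2's Wald test also called 0 higher. SKIV2L, the SKI helicase, had 0 counts in all libraries and was not tested. This does not show that its transcript was absent, since the annotation and the treatment of multiply mapped reads are not given.

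In the list of RNA exonucleases outside the exosome, 5 of 9 tested were lower and 2 were higher, against 24.7% and 25.8% of all genes. The median change of the list was -0.345 (log2), against 0.02 over all genes. One of the 5 lower genes, SUPV3L1, is a mitochondrial RNA helicase that works with PNPT1 and no exonuclease itself, with a log2 fold change of -0.95 ± 0.14 (SE, edgeR adjusted p = 6.52e-05). TOE1, a deadenylase that matures small nuclear RNAs, had 40.0 ± 2.04 CPM with DMSO and 16.6 ± 1.86 CPM with WFA, a log2 fold change of -1.26 ± 0.12 (SE, edgeR adjusted p = 4.8e-07). PNPT1, the mitochondrial relative of the exosome ring, had 129.6 ± 8.77 and 63.9 ± 6.22 CPM, a log2 fold change of -1.02 ± 0.09 (SE, edgeR adjusted p = 5.56e-07). The exonucleases that work from the opposite end diverged, since the nuclear XRN2 fell with a log2 fold change of -0.66 ± 0.09 (SE, edgeR adjusted p = 1.48e-05) and the cytoplasmic XRN1 rose with 0.44 ± 0.09 (SE, edgeR adjusted p = 0.000657). PARN had 0 counts in all libraries and was not tested, and for the same reason its absence cannot be read from this.

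Deadenylation and decapping genes, a list of other mRNA decay factors, had 11 lower and 3 higher of 27 tested, against 24.7% and 25.8% of all genes. Their median change was -0.17 (log2), against 0.02 over all genes. CNOT7, a catalytic deadenylase, had a log2 fold change of -0.55 ± 0.08 (SE, edgeR adjusted p = 5.28e-05), and CNOT10, a non-catalytic subunit of the same complex, had -0.57 ± 0.09 (SE, edgeR adjusted p = 0.000106). CNOT6L, another catalytic subunit, rose with a log2 fold change of 0.49 ± 0.09 (SE, edgeR adjusted p = 0.000328). LSM2, with no more than 2 counts per library, was not tested, and these counts likewise do not show that its transcript was absent. Whether the exosome subunits differ from these lists was not tested, and all lists share the same libraries.

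**Figure D4:**
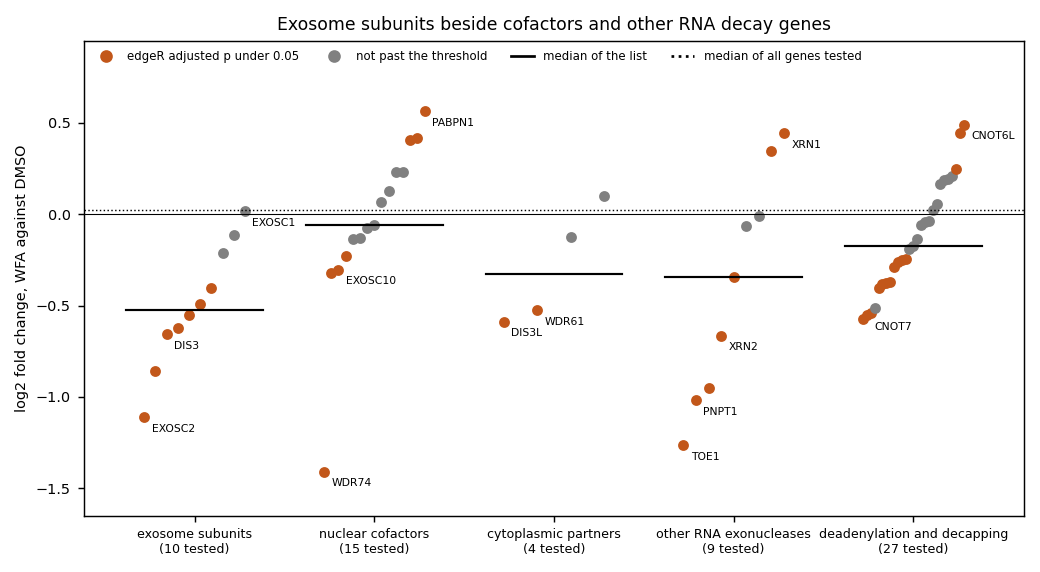
Log2 fold change, WFA against DMSO, of the tested genes in each list (orange, edgeR adjusted p under 0.05, and grey, not past the threshold), with the list median as a line and the median of all genes as a dotted line. The median is -0.52 for the exosome subunits, -0.06 for nuclear cofactors, -0.325 for cytoplasmic partners, -0.345 for other RNA exonucleases and -0.17 for deadenylation and decapping genes.

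Likeness of pattern was measured as the Euclidean distance, over the 6 libraries, between gene-centred log2 CPM and the mean profile of the 10 subunits. The nearest other genes were SLC5A6, a vitamin transporter, at a distance of 0.0472, NUDT19 at 0.0625 and ADO, a thiol dioxygenase, at 0.0643, with log2 fold changes of -0.53, -0.46 and -0.49. Selection by this distance largely fixes these fold changes, so they are no separate result. Among 12854 genes, EXOSC8 was the closest subunit to this mean, at rank 28 with a distance of 0.110, although it contributes to it. EXOSC3 came next at rank 379 and DIS3 at rank 1104, and the remaining subunits were farther away. EXOSC2, at a distance of 0.800 and rank 6264, and EXOSC1, at 0.659 and rank 4743, were farthest from the mean, on opposite sides. The mean profile, and the genes nearest to it, thus stand for few of the single subunits.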

How the data were processed

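Indexed TruSeq RNA v2 libraries of total RNA were sequenced, 3 per group. The authors deposited raw read counts per gene, which were used here, beside a score per library (counts scaled with size factors, then rounded) and their own fold changes, p-values and dispersions, which were not used. The submitters' processing notes name bcl2fastq 2.19, Trimmomatic, Bowtie2, Picard, featureCounts, DESeq2 and the build hg38. The annotation and the treatment of shared or multiply mapped reads are not given in the sources used here.

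Deposited counts were filtered with filterByExpr (minimum count 10), scaled by TMM and tested by quasi-likelihood in edgeR 4.0.16 (R 4.3.3), with Benjamini-Hochberg adjustment and a threshold of 0.05. Standard errors are the log2 fold change over the root of its F statistic. Alternatives were DESeq2 1.42.0, a replicate block, other scalings, no filter, a robust fit and leaving out each library. Replicate numbers pair the libraries: same-numbered DMSO and WFA libraries share a suffix in the labels' descriptions and deviated together, with correlations of 0.217, 0.333 and 0.245 across genes. Within a group, no pair of libraries agreed within sampling noise (chi-square per gene 5.98 to 11.1). Precision is limited by counts of 52 to 1907 reads per subunit and library, and intervals assume that replicates vary as the fit estimates. The code was tested on simulated data.

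The subunits and gene lists were chosen with earlier results of these data known. Named genes are the 10 subunits, for each other list up to 3 genes past the threshold with the smallest p-value and 1 in the opposite direction, and the 3 genes nearest in pattern. EXOSC10, TTC37, HBS1L and SUPV3L1 are added by role, after their values were seen, and the overlapping and neighboring genes by position. The length alternative, EXOSC5's promoter and the neighbors were chosen after seeing the data. SKIV2L2, PAPD5, PAPD7, GLTSCR2 and RQCD1 were matched as older symbols of MTREX, TENT4B, TENT4A, NOP53 and CNOT9. Gene lengths, overlaps and starts come from GENCODE 29 and RefSeq on GRCh38.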

Additional observations from a re-analysis of the deposited data

How the results depend on the processing

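Under every alternative, between 6 and 8 subunits were lower with WFA and 0 were higher. The number of genes called over the whole table moved as well. With total counts, where 8 subunits were lower, 3875 of 12854 genes were lower and 2760 higher, against 3178 and 3311 with TMM. The median log2 fold change of all genes was then -0.063, against 0.02 with TMM. The median log2 fold change of the subunits was -0.605 with total counts in place of TMM, and lay between -0.563 and -0.463 with each library left out in turn, against a spread of 0.0374 between the pairs (SD). EXOSC2, EXOSC3, EXOSC5, EXOSC7, EXOSC8 and DIS3 stayed lower and past the threshold in every alternative run. EXOSC4 lost its call in DESeq2 and in 4 of the 6 fits without one library, and EXOSC9 gained one in 3 alternatives. EXOSC1 took the opposite sign in DESeq2 (-0.0052) and with total counts (-0.069), and ranged from -0.034 to 0.092 with each library left out. With the replicate block, 8 subunits were lower, EXOSC9 being the one added, and no other subunit's call changed. This fit leaves 2 residual degrees of freedom in place of 4 but was not stricter. For the listed genes its p-values are close to those of a normal distribution at the ratio of change to SE. They therefore take little account of each gene's own replicate variation and are likely too small, also for the calls it added. For EXOSC2 the edgeR adjusted p was 1.86e-30 with the block and 7.51e-07 without it. The block also raised the share of all genes called, to 28.8% lower and 30.2% higher from 24.7% and 25.8%. In the other lists the block added GLTSCR2 to the higher nuclear cofactors and CNOT2 to the lower deadenylation and decapping genes. The median transcript length in place of merged exons moved the DMSO levels per kilobase to 26.1 for EXOSC1, 76.6 for EXOSC3, 37.0 for EXOSC9 and 27.2 for DIS3. EXOSC4 and EXOSC5, with the fewest reads, had the widest intervals, and their DMSO libraries had the largest coefficients of variation.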

Other observations

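Genes that start within 1000 bases of a subunit's start on the opposite strand were looked up after the results were seen. ZDHHC3, a palmitoyltransferase gene that starts 62 bases from EXOSC7, was lower with WFA, with a log2 fold change of -0.47 ± 0.08 (SE, edgeR adjusted p = 0.000162) beside -0.62 for EXOSC7. BCKDHA, a branched-chain keto acid dehydrogenase subunit that starts 101 bases from EXOSC5, had -0.32 ± 0.13 (SE, edgeR adjusted p = 0.0481) beside -0.86. PIBF1, a centrosomal protein gene that starts 159 bases from DIS3, had -0.13 ± 0.12 (SE, edgeR adjusted p = 0.373) beside -0.66. ZDHHC16, which starts 125 bases from EXOSC1, had -0.10 ± 0.12 (SE, edgeR adjusted p = 0.491) beside 0.02. Whether each pair differs was not tested.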
